A study of Homo sapiens with 7 samples.

Results

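The protocadherin beta and gamma clusters are neighbouring gene arrays on human chromosome 5 whose chromatin loops were described here in 7 HiChIP lists. HiChIP joins neighbouring DNA ends inside fixed nuclei and then pulls down the joined fragments with an antibody, so that each listed loop is a pair of anchors with a count. A loop was taken when at least 1 anchor midpoint lay at chr5:140425001-141050000 (hg19) and no anchor midpoint lay at chr5:140160000-140425000, the adjoining alpha window. This gave 184 loops out of 135475 in all lists together, at 116 distinct pairs of positions. The members of the clusters are the 16 beta genes (PCDHB1 to PCDHB16) and 22 gamma genes, namely 12 of type A, 7 of type B and the C-type genes PCDHGC3, PCDHGC4 and PCDHGC5.

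HEC-1-B, an established line from a uterine adenocarcinoma, and lines derived from it gave the 7 libraries, with 1 library per group. Wild-type cells were profiled with antibodies to ZNF143, CTCF and RAD21, and ZNF143KO cells with antibodies to CTCF and RAD21. CTCF-AID cells, in which CTCF carries an auxin-inducible degron (AID) that acts in cells expressing TiR1, were profiled with the ZNF143 antibody at 0 h and at 24 h of IAA, an auxin (500 µM). Whether the derived lines are single clones is not given in the sources used here. No list shows the removal of either protein, since ZNF143 loops of ZNF143KO cells and CTCF loops of auxin-treated cells were not analysed here. With 1 library per group there is no replicate error and no test between conditions. The 95% intervals below are exact binomial intervals, which cover counting error within those libraries only.

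Clustered protocadherins are cell-surface adhesion proteins that bind copies of themselves on other cells and give neurons individual identities. Each beta gene is a separate transcription unit, whereas each gamma variable exon has its own promoter and is spliced to constant exons shared by the cluster. Elements downstream of the gamma genes act as enhancers for the beta and gamma promoters, and CTCF bound at promoters and enhancers holds them together where cohesin, of which RAD21 is a subunit, stops extruding DNA. ZNF143 is a zinc-finger protein that binds many promoters. In the RefSeq gene order the window runs from PCDHB1 through PCDHB15, past SLC25A2 (a mitochondrial carrier) and TAF7 (a subunit of the general transcription factor TFIID), to PCDHGA1 and on to PCDHGC5. DIAPH1, an actin-nucleating formin, and HDAC3, a histone deacetylase, follow. No annotation of hg19 was used here, so anchors are named by position and not by gene.

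Promoter sequences are shown first because the promoters of most clustered protocadherin genes are known to carry a conserved element that CTCF binds. RefSeq (GRCh38.p14) promoters, of 300 bases each, were matched for 34 of the 38 members. PCDHB6, PCDHB11, PCDHGA12 and PCDHGC5 had no entry. The 4 letters CGCT, in capitals in the stretches below, occurred on the gene's own strand in 34 of 34 members. The same letters occurred on that strand in 57.7% of all 27305 genes of the table (71.9% on either strand). The capitals mark these letters only, and whether a given stretch holds the conserved element was not tested. The stretches are 5′ to 3′ with 16 bases on each side, and were picked to show the ends and the middle of each array.

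PCDHB1: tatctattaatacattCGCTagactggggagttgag
PCDHB2: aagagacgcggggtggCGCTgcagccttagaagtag
PCDHB8: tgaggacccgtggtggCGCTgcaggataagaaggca
PCDHB13: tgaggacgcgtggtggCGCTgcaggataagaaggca
PCDHB15: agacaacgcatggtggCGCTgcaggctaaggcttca
PCDHGA1: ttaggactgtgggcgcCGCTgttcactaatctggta
PCDHGB4: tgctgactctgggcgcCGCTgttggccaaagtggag
PCDHGA8: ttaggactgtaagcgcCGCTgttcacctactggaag
PCDHGA11: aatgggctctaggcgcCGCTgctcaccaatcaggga
PCDHGC3: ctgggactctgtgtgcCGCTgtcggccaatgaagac
PCDHGC4: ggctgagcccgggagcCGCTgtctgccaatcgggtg

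The longer letters GNCGCTG, which contain CGCT, occurred on the gene's strand in 30 of 34 members, against 17.3% of all genes (28.9% on either strand). The exceptions were PCDHB1, PCDHB14, PCDHGB3 and PCDHGB7. GGTGGCGCT, which overlaps the previous motif and was picked from the beta sequences, occurred in 13 of 14 beta promoters, in 0 of 18 promoters of gamma A and B genes and in 0 of 2 of gamma C genes, against 0.374% of all genes (0.619% on either strand). PCDHB1 was the beta promoter without it. Both longer motifs were chosen after the sequences had been seen. The genes arose as copies of each other, so their promoters are not independent examples. A match is a run of letters and was not linked to any loop.

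The loops were unevenly spread over antibodies. In wild-type cells the window held 43 CTCF loops, 29 RAD21 loops and 8 ZNF143 loops. Per 1000 loops of the whole list these were 2.23 (1.61 to 3.00), 1.73 (1.16 to 2.48) and 0.668 (0.288 to 1.32). ZNF143KO cells had 34 CTCF loops, or 2.18 per 1000 (1.51 to 3.04), and 17 RAD21 loops, or 1.57 per 1000 (0.917 to 2.52). CTCF-AID cells had 43 ZNF143 loops at 0 h, or 1.06 per 1000 (0.770 to 1.43), and 10 at 24 h, or 0.486 per 1000 (0.233 to 0.893). The window therefore took nearly the same share of the CTCF list, and of the RAD21 list, with and without ZNF143, and a smaller share of the ZNF143 list at 24 h than at 0 h, with overlapping intervals. The summed counts were 17 for wild-type ZNF143, 231 and 136 for CTCF, 149 and 66 for RAD21, and 107 and 24 for the CTCF-AID lists. Among loops of the whole list with more than 2 counts, 34.0% at 0 h and 32.05% at 24 h had an odd count, against 61.8% to 67.9% in the other 5 lists, so the scale of the CTCF-AID counts may differ. The window had too few such loops to tell, with an odd count in 5 of 8 at 0 h (62.5%, 24.5 to 91.5) and in 0 of 1 at 24 h. The lists of wild-type ZNF143 and of ZNF143KO cells also had another file layout than the other 4, and layout and genotype cannot be told apart.

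**Figure D1:**
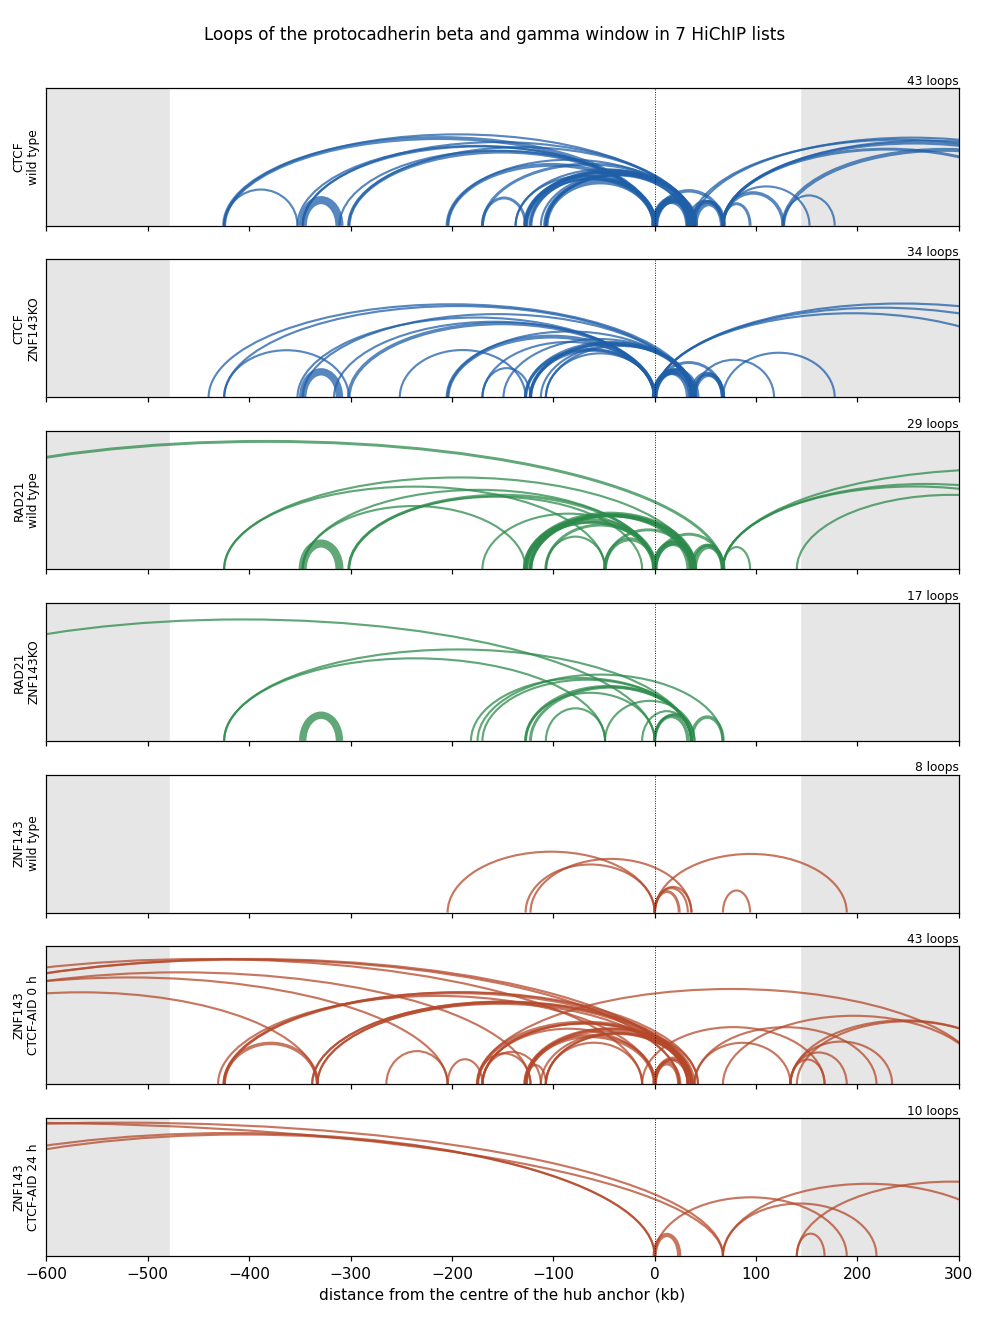
Arcs join the anchor centres of each listed loop in each of the 7 lists, with distance from the hub anchor centre (dotted line) in kb on the horizontal axis. Line width grows with the log2 of the count, arc height only reflects span, the grey areas lie outside the window, and arcs leaving the axis are cut off. Most arcs have an end at the hub or at the sites just after it, and the 24 h panel has no arc that starts in the window before the hub.

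Summed over the 7 lists, the anchor at chr5:140903386-140905469, called the hub below, carried more loops than any other anchor, 61. It took part in 14 of 43 wild-type CTCF loops (32.6%, 19.1 to 48.5), 10 of 29 RAD21 loops (34.5%, 17.9 to 54.3) and 6 of 8 ZNF143 loops (75.0%, 34.9 to 96.8). In ZNF143KO cells it took part in 16 of 34 CTCF loops and 5 of 17 RAD21 loops. In CTCF-AID cells it took part in 6 of 43 loops at 0 h and 4 of 10 at 24 h. It was not first in every list. The anchor at 140.941 Mb had 8 RAD21 loops in ZNF143KO cells and 7 ZNF143 loops at 0 h, more than the hub, and the anchor at 140.972 Mb also had 4 loops at 24 h. The hub and the anchor centred at 140.972 Mb were the 2 of 36 window anchors that carried a window loop in every list. Anchors close together were also joined into broader sites after a 5 kb extension, which gave 16 sites. The site with most loops was then the one at chr5:140926566-140947934, with 85 loops over the 7 lists, against 61 at the hub. The hub had more loops than this site for ZNF143 in wild-type cells (6 against 4) and at 24 h (4 against 1), and as many for RAD21 in wild-type cells (10 and 10). The next were chr5:140766649-140797900 with 49, chr5:140970800-140972701 with 30, chr5:140551466-140572458 with 18 and chr5:140722557-140735241 with 16. The pattern thus paired a row of sites spread over the stretch before the hub with a compact group of sites at and after it.

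**Figure D2:**
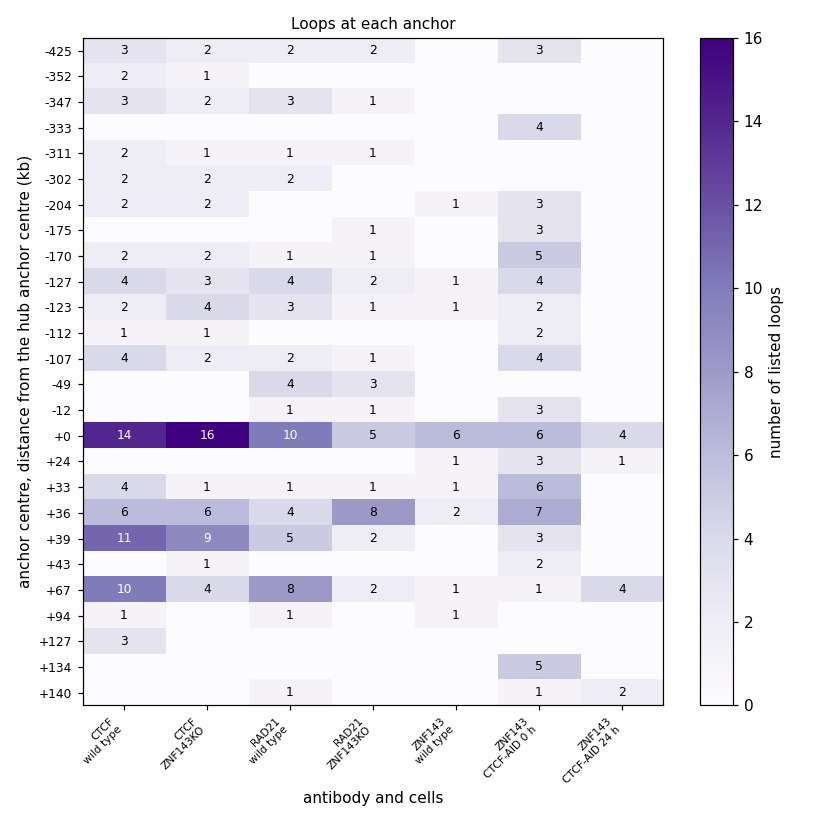
Each cell gives the number of listed window loops at an anchor (rows, by distance in kb from the hub anchor centre) in a list (columns), for the 26 anchors with at least 3 loops over all lists. The hub row is the darkest in the CTCF columns, with 14 and 16 loops, and the 24 h column is empty in every row above the hub.

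The commonest CTCF and RAD21 loops linked the stretch before the hub to the hub and the sites after it. Of the 36 window anchors, 24 lay before the hub. In wild-type cells 23 of 43 CTCF loops and 13 of 29 RAD21 loops had 1 anchor before the hub and 1 at or after it. With ZNF143 deleted these were 18 of 34 and 9 of 17. Only 3 and 5 loops in wild-type cells, and 4 and 3 in ZNF143KO cells, joined 2 positions before the hub. Loops with at least 1 anchor before the hub made up 60.5% (44.4 to 75.0) of wild-type CTCF loops, 62.1% (42.3 to 79.3) of wild-type RAD21 loops, 64.7% (46.5 to 80.3) and 70.6% (44.0 to 89.7) in ZNF143KO cells, and 37.5% (8.52 to 75.5) of wild-type ZNF143 loops. The division at the hub was made after the anchor positions had been seen.

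**Figure D3:**
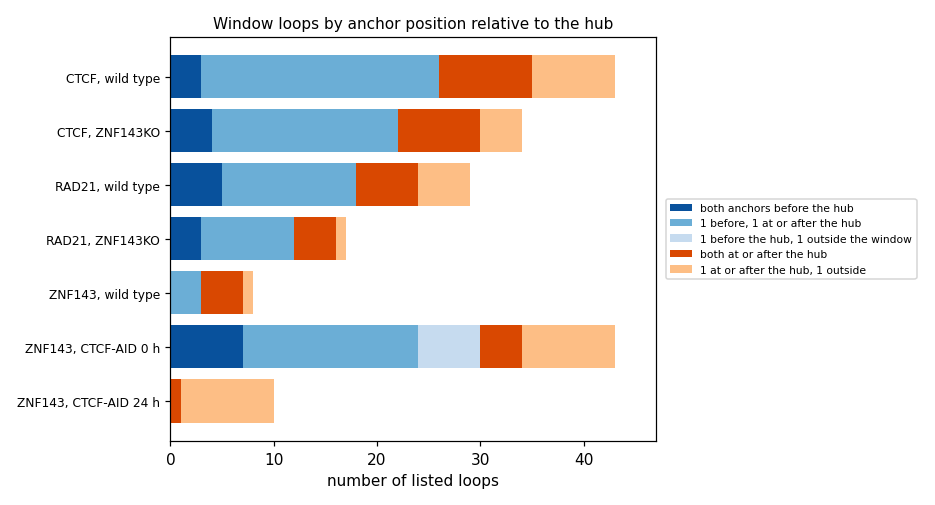
Bars give the number of listed loops in each list, divided by where the anchors lie relative to the hub and the window. The blue parts, loops with an anchor in the window before the hub, hold 26 of 43 wild-type CTCF loops and 30 of 43 ZNF143 loops at 0 h, and are missing at 24 h.

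The best supported loop did not involve the hub. It joined chr5:140556278-140558282 to chr5:140592618-140594362, a span of 36.2 kb in the earlier part of the window, and was the first by count in each of the 4 CTCF and RAD21 lists. Its count was 41 for CTCF and 40 for RAD21 in wild-type cells, and 28 for both in ZNF143KO cells. The ratio was 0.683 (0.407 to 1.13) for CTCF and 0.700 (0.416 to 1.16) for RAD21, whereas all counts of the lists together had ratios of 0.573 and 0.450. In wild-type cells 0.425% of all listed CTCF loops and 0.590% of all RAD21 loops had at least its count, and in ZNF143KO cells 0.141% and 0.213% did. Neither anchor carried a chromosome 5 loop in any of the 3 ZNF143 lists. This loop was therefore listed for CTCF and cohesin and not for ZNF143, and it stood nearer the top of both lists in ZNF143KO cells.

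The hub was also joined to the group of sites just after it. For CTCF the counts from the hub to the anchors centred at 140.937, 140.941 and 140.944 Mb were 10, 15 and 27 in wild-type cells. In ZNF143KO cells they were 5, 13 and 10. For RAD21 the loop to 140.937 Mb was not listed in wild-type cells and had a count of 4 in ZNF143KO cells. The loops to 140.941 and 140.944 Mb had RAD21 counts of 9 and 10 in wild-type cells, against 2 and 2. The ratio for the hub and 140.944 Mb was 0.370 (0.160 to 0.790) with CTCF and 0.200 (0.0213 to 0.939) with RAD21. For the hub and 140.941 Mb it was 0.867 (0.380 to 1.95) with CTCF and 0.222 (0.0234 to 1.07) with RAD21. Each of these 4 intervals includes the whole-list count ratio of its antibody. The loop from 140.944 to 140.972 Mb had CTCF counts of 15 and 6, and for RAD21 it was listed in wild-type cells alone, with 8. The neighbouring loop from 140.941 to 140.972 Mb had CTCF counts of 4 and 6 and RAD21 counts of 4 and 4.

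Summed over all their window loops, the neighbouring anchors at 140.941 and 140.944 Mb had different counts without ZNF143. The anchor at chr5:140939704-140941535 had a CTCF count of 27 in wild-type and 27 in ZNF143KO cells (ratio 1.00, 0.564 to 1.77), and a RAD21 count of 21 and 20 (0.952, 0.490 to 1.85). The anchor at chr5:140942443-140944788 had CTCF counts of 68 and 33 (0.485, 0.310 to 0.746) and RAD21 counts of 33 and 4 (0.121, 0.0312 to 0.341). With RAD21 the intervals of the 2 anchors did not overlap, and with CTCF they did. At the hub the sums were 100 and 63 for CTCF (0.630, 0.452 to 0.872) and 50 and 12 for RAD21 (0.240, 0.116 to 0.457). At 140.972 Mb they were 42 and 17 for CTCF (0.405, 0.216 to 0.726) and 26 and 6 for RAD21 (0.231, 0.0777 to 0.573). The count ratios of the whole lists, 0.573 for CTCF and 0.450 for RAD21, lay inside the intervals of the hub and of 140.972 Mb, and for CTCF also inside those of 140.941 and 140.944 Mb. For RAD21 the whole-list ratio lay below the interval of 140.941 Mb and above that of 140.944 Mb. The anchor at 140.941 Mb was picked out after its values had been seen, and reads near the edge of neighbouring anchors may have been split between them. Whether such a split underlies the difference between the 2 anchors was not tested. Both lie in the broader site at chr5:140926566-140947934. As a whole that site had CTCF counts of 113 in wild-type and 68 in ZNF143KO cells, and RAD21 counts of 57 and 28.

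Loops from before the hub to the hub numbered 10 for CTCF in wild-type cells and 8 in ZNF143KO cells, and 7 and 1 for RAD21. Loops from before the hub to the other sites after it numbered 13 and 10 for CTCF, and 6 and 8 for RAD21. The loop number ratios of the whole lists were 0.808 for CTCF and 0.644 for RAD21. The loop from 140.777 Mb to the hub, spanning 127 kb, was listed in 6 of 7 lists. Its CTCF count was 9 in wild-type and 3 in ZNF143KO cells (ratio 0.333, 0.058 to 1.34). Its RAD21 count was 11 and 2 (0.182, 0.0196 to 0.833). Its ZNF143 count was 2 in wild-type cells and 5 at 0 h, and it was not listed at 24 h. The loop from 140.797 Mb to the hub had CTCF counts of 11 and 2 (ratio 0.182, 0.0196 to 0.833). For RAD21 it was listed in wild-type cells alone, with a count of 3. The intervals of both loops include the whole-list count ratio of their antibody, 0.573 for CTCF and 0.450 for RAD21. For loops to the hub from farther away, the CTCF counts were equal in some cases and not in others. The loop from 140.603 Mb, spanning 302 kb, had CTCF counts of 4 and 4 and for RAD21 it was listed in wild-type cells alone, with a count of 3. The loop from 140.700 Mb, spanning 204 kb, had CTCF counts of 5 and 5, was also listed for wild-type ZNF143 (count 2), and was in neither RAD21 list. The loop from 140.480 Mb, spanning 425 kb, had 5 CTCF counts with ZNF143 present and was not listed without it.

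**Figure D4:**
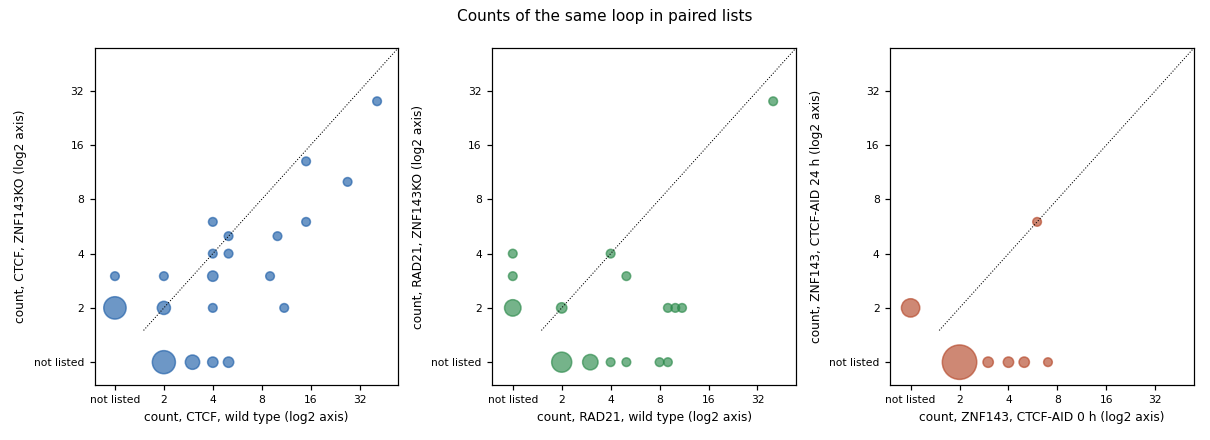
Each circle is a loop position with its count in the first list (horizontal) and the second list (vertical) of a pair on log2 axes, with larger circles where several loops coincide and "not listed" for loops missing from a list. The dotted line marks equal counts. In the CTCF and RAD21 panels the loop with 41 and 40 counts in wild-type cells lies at 28, and in the ZNF143 panel a single loop, with 6 counts at both times, lies on the line.

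Across the window, ZNF143KO cells had fewer listed CTCF and RAD21 loops, in a proportion near that of the lists as a whole. The loop number ratio was 0.791 (0.489 to 1.27) for CTCF, against 0.808 in the whole list, and 0.586 (0.302 to 1.10) for RAD21, against 0.644. Both intervals include 1. With a minimum count of 5 the RAD21 loops numbered 8 and 1 (ratio 0.125, 0.00282 to 0.932), and the whole-list ratio of 0.336 at that minimum lies inside the interval. The CTCF loops then numbered 11 and 7 (0.636, 0.209 to 1.80), against 0.415 in the whole list. A loop was called found again when both anchors, extended by 5 kb, met a loop of the second list. Of 43 wild-type CTCF loops 27 were found again (62.8%, 46.7 to 77.0), with 39.1% called over the whole list. Of 29 wild-type RAD21 loops 15 were found again (51.7%, 32.5 to 70.6), with 34.1% over the whole list. In the other direction 24 of 34 CTCF loops (70.6%, 52.5 to 84.9) and 12 of 17 RAD21 loops (70.6%, 44.0 to 89.7) of ZNF143KO cells were found in wild-type cells, with 47.1% and 50.9% over the whole lists. An extended anchor can also meet a neighbour of its match where anchors lie close together. Anchor spacing was not compared with the whole lists, and its part in these shares was not tested. Without extension 19 of 43 CTCF loops (44.2%, 29.1 to 60.1) and 8 of 29 RAD21 loops (27.6%, 12.7 to 47.2) were found, with 33.6% and 29.7% over the whole lists, and both intervals include the whole-list share.

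With overlapping anchors merged over lists, loops at the same pair of anchors in both genotypes numbered 19 for CTCF and 8 for RAD21. Their count was lower in ZNF143KO cells for 11 and 5, equal for 6 and 3, and higher for 2 and 0. The summed window counts had ratios of 0.589 for CTCF and 0.443 for RAD21, close to the 0.573 and 0.450 of the whole lists. Loops with 5 or more counts were found again in 9 of 11 cases for CTCF and 7 of 8 for RAD21, against 71.4% and 67.3% over the lists. The best supported CTCF loops not found again had a count of 5. They were the one from 140.480 Mb to the hub and one from 141.031 to 141.349 Mb. For RAD21 the best supported was the loop from 140.855 Mb to the hub, with a count of 5, followed by the loop from the hub to 140.972 Mb, with 3. No newly listed CTCF or RAD21 loop without a match in wild-type cells had more than 2 counts. The shortest of them joined 140.944 to 141.022 Mb and 140.972 to 141.082 Mb for CTCF, and 140.892 and 140.735 Mb to 140.941 Mb for RAD21.

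Among the anchors with at least 3 loops, 1 carried window loops for RAD21 alone. The anchor at chr5:140854825-140856054 had 4 RAD21 loops in wild-type cells (summed count 12) and 3 in ZNF143KO cells (summed count 6). It carried 0 chromosome 5 loops in each of the 2 CTCF and 3 ZNF143 lists. Its RAD21 partners lay on either side, at 140.480 and 140.797 Mb and at and after the hub. For CTCF alone there were 2 such anchors. The anchor at chr5:140551466-140552797 had 2 loops in wild-type cells (summed count 4) and 1 in ZNF143KO cells (count 2). It also carried 1 chromosome 5 loop for ZNF143 at 0 h that the window rule left out, so it was not free of ZNF143 loops. The anchor at chr5:141030603-141031784 had 3 loops in wild-type cells (summed count 11) and 0 chromosome 5 loops in the other 6 lists, ZNF143KO cells included.

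ZNF143 loops in wild-type cells were few and weak, with a count of 3 for the best supported and 2 for the other 7. Of the 8 loops, 6 were found in the CTCF list (75.0%, 34.9 to 96.8), with 19.0% over the whole list, and 5 in the RAD21 list (62.5%, 24.5 to 91.5), with 16.3% over the whole list. The loop with 3 counts was found in neither. It joined the hub to chr5:140926566-140930581 and spanned 24.1 kb. The loop from the hub to 141.094 Mb, with a count of 2, was not found there either. The anchor at 140.929 Mb carried 0 chromosome 5 loops in the 4 CTCF and RAD21 lists. A further loop joined 140.972 to 140.999 Mb, with a count of 2 for ZNF143, 3 for CTCF and 2 for RAD21 in wild-type cells, and was not listed in any of the other 4 lists.

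In CTCF-AID cells without auxin the window held more ZNF143 loops than in wild-type cells, 43 against 8, a ratio of 5.38 (2.50 to 13.2) beside 3.37 for the whole lists. With the CTCF-AID counts halved and those under 2 dropped, 6 loops remained at 0 h (ratio 0.75, 0.214 to 2.46). This step drops every loop with a count of 2 or 3 from the CTCF-AID list alone, so it lowers the ratio by its construction. Of the 8 wild-type loops 5 were found at 0 h (62.5%, 24.5 to 91.5), with 59.6% over the whole list. Of the 43 loops at 0 h 6 were found in wild-type cells (13.95%, 5.30 to 27.9), with 19.4% over the whole list. The best supported at 0 h joined 140.777 to 140.941 Mb (count 7), the hub to 140.929 Mb (count 6), and the hub to 140.941 Mb and 140.777 Mb (count 5 each). Loops from 140.480 to 140.572 Mb and from 140.730 to 140.941 Mb, with a count of 4 each, were the best supported without a match in wild-type cells. At 0 h 35 of 43 loops had a count of 2. The anchors before the hub thus appeared in the ZNF143 list of these cells, 13 of them, while 3 did in wild-type cells.

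After 24 h of auxin the ZNF143 loops before the hub were no longer listed. At 0 h 30 of 43 loops had an anchor in the window before the hub (69.8%, 53.9 to 82.8), and at 24 h 0 of 10 did, which allows a share of up to 30.0% by the limit of 3 counts and of 30.8% by the exact interval. The ratio of these loop numbers was 0, with an upper bound of 0.131. Loops without such an anchor numbered 13 and 10 (ratio 0.769, 0.302 to 1.90). None of the 24 anchors before the hub carried any chromosome 5 loop at 24 h, those reaching the alpha window included. Loops of the whole list had a ratio of 0.510, and loops of the window one of 0.233 (0.104 to 0.470). Loops with both anchors in the window numbered 28 and 1 (0.0357, 0.000873 to 0.216). Of the 43 loops at 0 h 2 were found at 24 h (4.65%, 0.568 to 15.8), with 24.7% over the whole list, and without extension 1 of 43 (2.33%, 0.0589 to 12.3), with 20.3%. Of the 10 loops at 24 h 2 were found at 0 h (20.0%, 2.52 to 55.6), with 45.4% over the whole list. Low counts limit this comparison. At a minimum count of 3 the loops before the hub numbered 5 and 0, with an upper bound of 1.09 for the ratio, and a loop that is not listed was not shown to be absent.

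What was listed at 24 h was 1 loop within the window and 9 that left it. The loop within the window was the one from the hub to 140.929 Mb, with a count of 6 at 24 h and 6 at 0 h, after 3 in wild-type cells. Of all 116 loop positions it was the one present in all 3 ZNF143 lists, and it was in none of the CTCF and RAD21 lists. The best supported loops lost joined 140.777 to 140.941 Mb (count 7), neither of whose anchors had a loop at 24 h, and the hub to 140.941 Mb (count 5), of which the hub still had loops. The 9 other loops at 24 h had 2 counts each. Their anchor in the window was the hub (3), 140.972 Mb (4) or 141.045 Mb (2). The shortest was from 141.045 to 141.072 Mb, and the next, from 140.972 to 141.123 Mb, had no match at 0 h. The loop from the hub to 141.094 Mb was shared with wild-type ZNF143 and not listed at 0 h.

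The spans followed from these positions. The median span in wild-type cells was 151 kb (107 to 241) for CTCF, 160 kb (67.3 to 302) for RAD21 and 81.8 kb (24.1 to 204) for ZNF143. In ZNF143KO cells it was 149 kb (107 to 204) for CTCF and 127 kb (39.2 to 217) for RAD21, so the intervals overlapped for both antibodies. The ratio of these medians was 0.984 for CTCF and 0.794 for RAD21, and at a minimum count of 3 it was 0.432 (23 and 14 loops) and 0.376 (16 and 5 loops). It was 180 kb (127 to 258) at 0 h and 296 kb (27.3 to 1191) at 24 h, where 9 of the 10 loops reached outside the window and the loop within it spanned 24.1 kb.

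The rule leaves out loops that also reach the alpha window. These numbered 14 for CTCF in wild-type and 4 in ZNF143KO cells, 9 and 2 for RAD21, 0 for wild-type ZNF143, and in CTCF-AID cells 17 at 0 h and 1 at 24 h. All loops of the alpha window had number ratios of 0.441 (0.223 to 0.832) for CTCF, 0.667 (0.331 to 1.31) for RAD21 and 0.357 (0.155 to 0.757) with auxin, and each interval overlapped that of the beta and gamma window.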

How the data were processed

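Each of the 7 libraries had 1 deposited loop list with 2 anchors and a whole-number count per line. The deposited counts ran from 2 upwards, have no stated scaling and were used as they stand. The submitters' processing notes name hg19 and HiC-Pro. The loop caller, filters and pooling of runs are not given in the sources used here. Total counts of the lists ran from 33460 to 143119 and are not library depths, which are unknown. Groups were taken from the sample titles. Anchors were given 1-based starts, merged over lists where they overlapped by at least 1 bp, and matched between lists after a 5 kb extension of the first list's anchors. Shares carry exact Clopper-Pearson intervals, number ratios the exact binomial split, and medians the binomial interval of their order statistics, all at 95%. Loops named are the 3 with the highest count per list and, per pair, the 2 best supported without a match in each direction, ties going to the shorter span, with the 6 sites that had most loops. Other loops and anchors were named after their values had been seen. The matching was checked on simulated data made from wild-type CTCF loops, some shifted by less than the extension and the rest moved far away. Recovery was therefore built in, and false matches among closely spaced anchors were not tested. Python 3.11, pandas 2.3.3, numpy 2.4.6 and scipy 1.17.1 were used. The genes, the window and the comparisons were chosen with earlier results of these data known. The intervals treat loops and counts as independent, which copied read pairs and shared anchors are not, and are therefore too narrow. Alternatives were other minimum counts, extensions and window rules.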

Additional observations from a re-analysis of the deposited data

How the results depend on the processing

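Of 59 values recomputed under an alternative for 16 results, 43 lay inside the interval first given, 12 lay outside, 3 changed direction, and the number of anchor sites, which has no interval, moved. Except where stated, the cause was not tested. Without anchor extension 44.2% of wild-type CTCF and 27.6% of wild-type RAD21 loops were found in ZNF143KO cells, and with both anchors required in the window 77.1% of CTCF loops were. A minimum count of 5 gave a RAD21 loop number ratio of 0.125, and a minimum of 3 a median span ratio of 0.432 for CTCF. For RAD21 the median span ratio at a minimum of 3 was 0.376, which lay inside the interval first given. With both anchors in the window the ZNF143 loop number ratio of 24 h to 0 h was 0.0357. Its median span ratio of 1.65 reversed to 0.220 at a minimum count of 3 and to 0.167 with both anchors in the window, each of which leaves 1 loop at 24 h. For ZNF143 in wild-type cells and at 0 h, the ratio of loop numbers was 1.59 after division by list size and reversed to 0.75 with halved CTCF-AID counts, which drops the lowest counts of that list alone. Its median span ratio of 2.20 was 4.54 at a minimum count of 3 and 3.99 with both anchors in the window. At a minimum count of 3 wild-type ZNF143 kept 1 loop, found in 100% at 0 h and in 0% for CTCF and for RAD21, and at 5 it kept none, so no ratio could be given. Merging anchors only where they overlap gave 36 positions in place of 16 sites. Loops before the hub numbered 5 and 0 at a minimum count of 3, 4 and 0 with halved counts, and 40 and 0 with loops to the alpha window, at 0 h and 24 h. These 3 alternatives, and the anchor merging, were chosen after seeing the data. No paired analysis was possible because each group had 1 library.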

Other observations

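Loops that left the window differed in where they went. Wild-type CTCF had 8 such loops, all to positions after the window (141.057 to 141.372 Mb), and ZNF143KO cells had 4 (141.082 to 141.391 Mb). In wild-type cells 4 of the 8 started at 140.972 Mb, and in ZNF143KO cells 3 of the 4 started at the hub. Each of these ZNF143KO loops had a count of 2. RAD21 had 4 to positions after the window and 1 before it in wild-type cells, and 0 and 1 in ZNF143KO cells. The ZNF143 lists of CTCF-AID cells also reached upstream of the alpha window, with 6 loops at 0 h (140.027 to 140.106 Mb) and 4 at 24 h (139.556 to 140.091 Mb). Those at 0 h ended at 140.572, 140.700, 140.782, 140.892, 140.929 and 140.937 Mb, whereas those at 24 h ended at the hub (2) and at 140.972 Mb (2). The anchor at 141.038 Mb had 5 window loops at 0 h, all with a count of 2, and 0 chromosome 5 loops in the other 6 lists.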
